A study of Mus musculus with 6 samples.

Results

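The receptor chains described here are the 6 genes Il7r, Il2ra, Il2rb, Il2rg, Il4ra and Il21r, chosen by symbol from the 32285 genes of the count matrices, and all 6 were measured in each of the 6 libraries. Single-cell RNA-seq was performed on αβ T cells sorted as CD45+ TCRβ+ from kidneys of male wild-type C57BL/6J mice aged 7 to 8 weeks. The CD4, CD8 and CD4-CD8- double-negative (DN) subsets were each loaded as 1 library from normal kidneys (control) and 1 from kidneys after bilateral ischemia-reperfusion (IR), in which the pedicles of both kidneys were clamped for 30 min. Serum creatinine was read 24 h after surgery, and neither the time of T cell collection nor the number of mice behind a library is stated in the sources used here. With 1 library per group there was no replicate, so no p-value was computed. Each ratio compares those libraries, and the intervals given are 95% intervals that cover counting error only.

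Interleukins 2, 4, 7, 9, 15 and 21 signal through receptors that share the common gamma chain, encoded by Il2rg. Each ligand is recognised by a private or semi-private chain paired with it: Il7r (IL-7 receptor alpha), Il2ra (CD25, which raises affinity for IL-2), Il2rb (CD122, shared by IL-2 and IL-15), Il4ra and Il21r. The bound receptors activate the kinases JAK1 and JAK3 and the STAT transcription factors, and in T cells they are known for sustaining naive and memory cells (IL-7), innate-like and memory cells (IL-15) and regulatory T cells (IL-2).

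The 6 genes lie on 4 chromosomes of GRCm38 (mm10). Il7r spans chr15:9505788-9530176 on the minus strand, and Il2rb lies further along the same chromosome at chr15:78479256-78495271, also on the minus strand. Il2ra is at chr2:11642807-11693193 on the plus strand and Il2rg at chrX:101264378-101268255 on the minus strand. Il4ra (chr7:125552120-125579474) and Il21r (chr7:125603429-125633570) are both on the plus strand and 23954 bases apart. RefSeq promoter windows of the GRCm38.p6 build were available for 5 of the 6 genes. The 250 bases before the RefSeq start are printed for Il7r, the chain that differed most between IR and control, for Il2ra, which differed most between subsets, and for Il21r, which varied least. The Il7r window lies inside the gene span given above, because the GENCODE annotation holds a transcript that starts further upstream than the RefSeq one. Capitals mark letters of the motifs searched on both strands, which were ETS (CAGGAAG), RUNX (TGTGGT), FOXO (GTAAACA), STAT (TTCNNNGAA) and the CACCC box (CACACCC).
Il7r (chr15:9529877-9530126, minus strand): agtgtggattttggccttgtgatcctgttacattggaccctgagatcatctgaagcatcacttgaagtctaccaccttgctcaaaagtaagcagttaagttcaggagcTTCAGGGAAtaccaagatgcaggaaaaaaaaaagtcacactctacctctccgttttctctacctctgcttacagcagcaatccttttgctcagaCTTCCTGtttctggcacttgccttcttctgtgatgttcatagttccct
Il2ra (chr2:11642542-11642791, plus strand): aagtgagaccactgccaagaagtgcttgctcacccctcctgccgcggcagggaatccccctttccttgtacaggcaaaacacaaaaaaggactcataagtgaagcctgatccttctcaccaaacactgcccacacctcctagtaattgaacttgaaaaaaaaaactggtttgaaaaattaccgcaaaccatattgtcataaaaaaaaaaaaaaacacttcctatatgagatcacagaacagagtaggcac
Il21r (chr7:125603179-125603428, plus strand): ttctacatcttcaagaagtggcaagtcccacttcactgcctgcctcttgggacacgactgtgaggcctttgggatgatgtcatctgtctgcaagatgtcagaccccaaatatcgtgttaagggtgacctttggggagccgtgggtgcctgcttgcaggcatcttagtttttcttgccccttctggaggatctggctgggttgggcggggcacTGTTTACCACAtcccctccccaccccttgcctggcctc
The Il7r window held the ETS letters 48 bases before the start and the STAT letters 142 bases before it. The Il2ra window held none of the 5 motifs. In the Il21r window the RUNX and FOXO letters overlapped at 33 and 38 bases before the start. Across the windows of 27025 mouse genes, ETS letters were present in 10.5%, STAT letters in 7.18%, RUNX letters in 14.2%, FOXO letters in 3.09% and CACCC letters in 6.85%. These matches describe letters in the windows and were not tested as binding sites.

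After filtering, 47939 T cells of 54039 deposited barcodes were analysed, between 4042 (IR DN) and 10108 (IR CD4) per library. Median UMI counts (unique molecular identifiers, each standing for 1 captured transcript) of these cells were 6626 to 8364.5 in the control and 1450.5 to 2355.5 in the IR libraries, so depth and condition cannot be told apart by design. Levels are given as CPM, counts per 1000000 UMIs summed over the T cells of a library, after ribosomal-protein, mitochondrial and Malat1 transcripts were set aside. Those transcripts held 21.0 to 26.6% of control and 30.5 to 45.3% of IR UMIs. Cells of the conditions stood apart: when all libraries were clustered together, 16 of the 19 clusters of T cells, with 96.4% of these cells, held 90% or more of their cells from 1 condition (12 control, 4 IR). Shares of cells are given after thinning every cell to 500 UMIs. The sorts matched their markers, with Cd4 at 146 to 210 CPM in the CD4 libraries and below 0.5 CPM elsewhere, and Cd8a with Cd8b1 at 1495 to 2238 CPM in the CD8 libraries and below 6.3 CPM elsewhere. The 9 myeloid markers summed to 9.61 to 28.4 CPM in control and 31.4 to 152 CPM in IR libraries, and the 4 erythroid markers to 1.16 to 1.28 and 20.1 to 27.5 CPM. The 4 B cell markers summed to 1.91 to 11.8 CPM in control and 11.5 to 26.2 CPM in IR libraries, and the 4 NK markers, which some T cells also express, to 62.5 to 304 and 142 to 617 CPM, with both sums higher in IR in each subset. Single markers varied. Gzma and Klrb1c were higher in IR in each subset, but Eomes (60.2 against 28.9 CPM in CD8) and Ncr1 (15.3 against 6.84 CPM in DN) were lower in CD8 and DN. The DN B cell sum after IR was mostly Ms4a1 (0.461 against 17.1 CPM). The 3 antigen presentation markers summed to 93.2, 69.5 and 49.2 CPM in control CD4, CD8 and DN cells and to 92.5, 21.3 and 40.6 CPM after IR. The part of these other cells in the levels below was not tested. The thinned share of the 338 barcodes in clusters with little Cd3 that held any one receptor chain was at most 0.888% (median depth 1570.5 UMIs, against 3532 in T cells). These barcodes were not assigned to a cell type, and the value does not cover other cells left in the clusters of T cells.

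Il7r was the one chain that differed by 2-fold or more between the IR and control libraries, and it did so in all 3 subsets. The gene encodes the alpha chain through which T cells bind IL-7. Its level was 266 CPM (261 to 270) in control CD4, 375 (370 to 381) in control CD8 and 147 (144 to 150) in control DN T cells. In the IR libraries it was 892 CPM (878 to 907) in CD4, 787 (766 to 809) in CD8 and 716 (691 to 741) in DN T cells. The lowest IR library was thus above the highest control library, and no 2 of the 6 intervals overlapped. Il7r was 3.36-fold higher in IR CD4 (3.28 to 3.44), 2.10-fold higher in IR CD8 (2.03 to 2.16) and 4.88-fold higher in IR DN cells (4.69 to 5.09). As background, 22.8% of 9036 genes at 10 CPM or more in either library differed by 2-fold or more in CD4, 25.6% in CD8 and 19.6% in DN, and 7.72%, 7.93% and 8.31% were higher in IR and 15.1%, 17.7% and 11.3% lower. The ratio of Il7r ranked at percentile 97.2 of genes in CD4, 92.7 in CD8 and 96.7 in DN. When ribosomal and mitochondrial transcripts were kept in the total, the CD8 ratio was below 2-fold (log2 0.64), as it was without cell filters (log2 0.99).

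**Figure D1:**
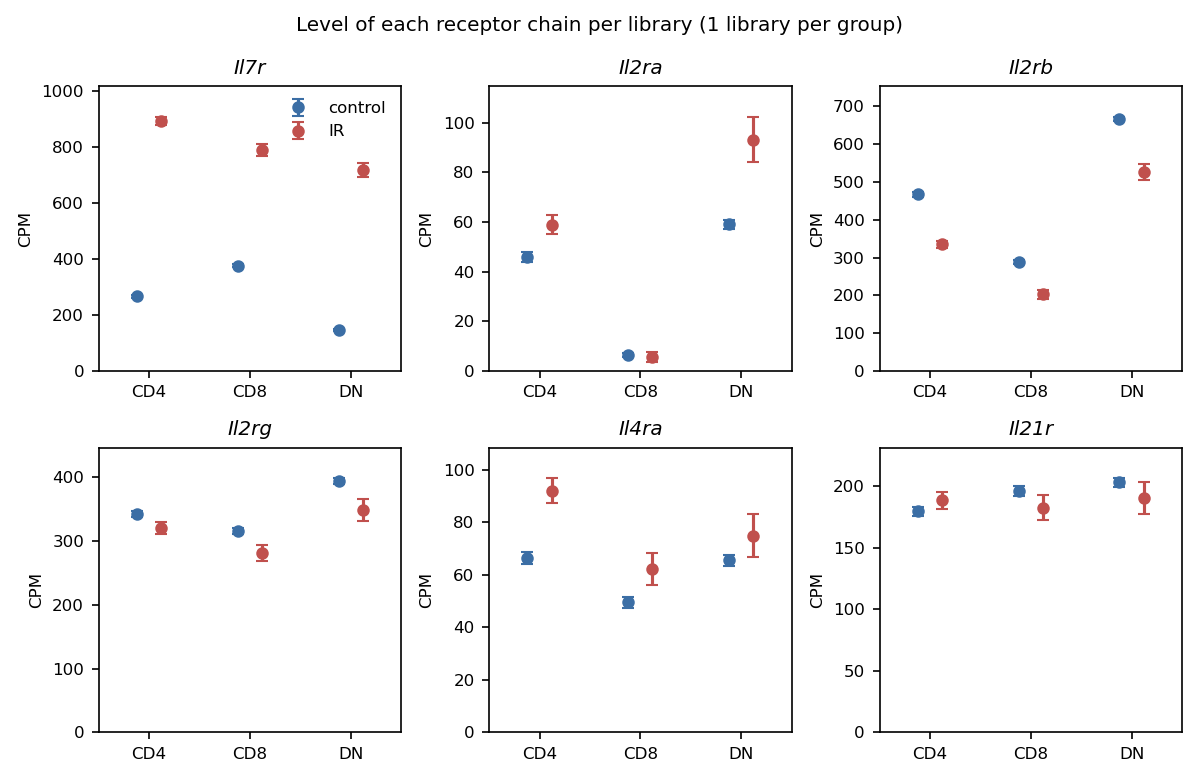
Level of each receptor chain in CPM (y axes from 0) in the CD4, CD8 and DN libraries, with control in blue and IR in red; each point is 1 library and bars are 95% Poisson intervals of the UMI sum. All 3 IR libraries lie above all 3 control libraries for Il7r, whereas Il2rb, Il2rg and Il21r show no such separation.

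The share of cells with an Il7r UMI followed the same order as its level within the control libraries and the IR libraries. At 500 UMIs per cell, Il7r was detected in 10.9% of control CD4, 13.7% of control CD8 and 5.70% of control DN cells. The corresponding shares were 31.8%, 29.1% and 26.1% after IR. Without thinning the shares were 38.8%, 38.6% and 27.4% in control and 55.8%, 43.5% and 39.0% in IR cells, so the gap between conditions was narrower where the deeper control cells kept all their UMIs. Cells with 3 or more Il7r UMIs among the 500 made up 0.191 to 0.806% of control and 2.38 to 3.14% of IR cells. Among cells of 1000 to 3000 UMIs only, which left 403 to 1782 control and 3588 to 7574 IR cells per library, Il7r was 2.97-fold higher in IR CD4, 2.33-fold in CD8 and 4.64-fold in DN cells. In this window 19.1%, 9.22% and 18.0% of all genes were higher by 2-fold or more in IR and 31.4%, 22.2% and 28.1% lower. The control cells in it are a shallow tail of their libraries (403 of 8898 in DN and 1295 of 9254 in CD4). Whether they are like the other control cells was not tested. Within libraries the direction with depth was not uniform: Il7r was 1024, 997 and 760 CPM in the shallow, middle and deep tertile of IR CD4 cells, but 112, 139 and 168 CPM in those of control DN cells. The deepest tertile of IR CD8 cells (median 1309 retained UMIs) had 678 CPM and the shallowest tertile of control CD8 cells (median 1223) had 331 CPM.

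**Figure D2:**
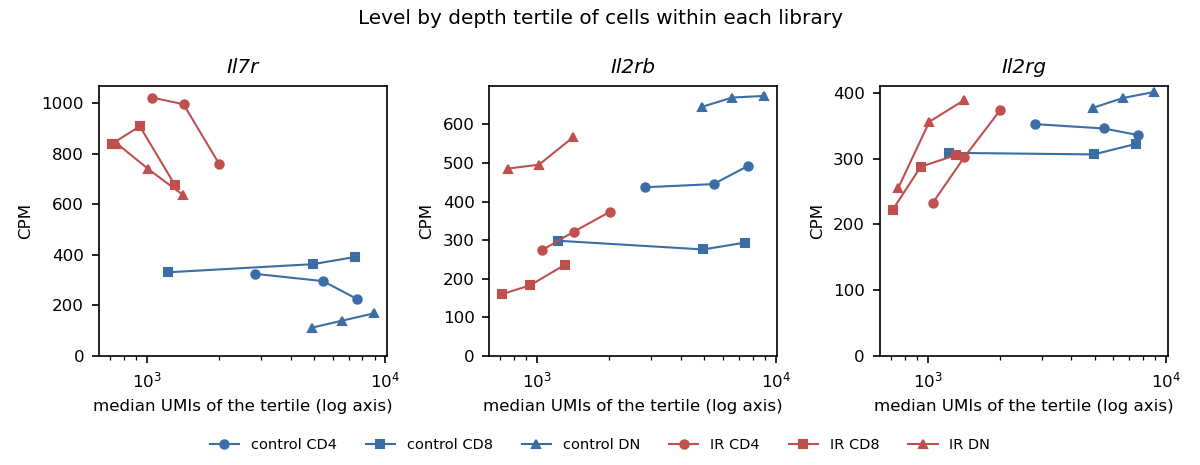
CPM of Il7r, Il2rb and Il2rg (y axes) against the median retained UMIs of cells (x axis, log scale) in the shallow, middle and deep tertile of each library; blue lines are control, red lines IR, and marker shapes the subsets. Every IR tertile of Il7r, from 638 to 1024 CPM, lies above every control tertile, and Il2rb and Il2rg are higher in deeper IR cells.

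The other chains differed less between IR and control. Il2ra was 45.9 CPM in control CD4, 6.48 in control CD8 and 59.0 in control DN cells, against 58.7, 5.43 and 93.0 CPM after IR. Its ratio of IR over control was 1.28 (1.19 to 1.38) in CD4 and 1.58 (1.42 to 1.75) in DN cells, and in CD8 cells, where the IR library held 35 Il2ra UMIs, it was 0.839 (0.573 to 1.19). Il2rb was at 467 CPM in CD4, 288 in CD8 and 667 in DN cells of the control libraries, and at 335, 202 and 526 CPM after IR. All 3 Il2rb ratios were below 1, at 0.718, 0.702 and 0.789, near the median over all genes, which was log2 -0.26 in CD4, -0.38 in CD8 and -0.26 in DN. Neither chain reached 2-fold in any subset, and Il2ra in CD8 was below the minimum of 10 CPM.

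Il2rg, the common gamma chain itself, was at 342, 316 and 394 CPM in the control libraries of CD4, CD8 and DN cells and at 320, 281 and 348 CPM after IR. Its ratios of 0.936, 0.889 and 0.885 were the closest to each other of the 6 genes. Il4ra, the alpha chain for IL-4 and IL-13, was 66.3, 49.6 and 65.6 CPM in control and 92.0, 62.1 and 74.8 CPM in IR cells, giving ratios of 1.39, 1.25 and 1.14. Il21r was 180, 196 and 203 CPM in control and 188, 183 and 190 CPM in IR cells, and all neighbours in its order of 6 libraries had overlapping intervals. The sign of the Il21r difference changed in each subset, that of Il4ra in CD8 and DN, and that of Il2ra in CD8, under at least 1 other processing. From the highest to the lowest library the ratio was 17.1 for Il2ra, 6.09 for Il7r, 3.30 for Il2rb, 1.86 for Il4ra, 1.40 for Il2rg and 1.13 for Il21r.

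**Figure D3:**
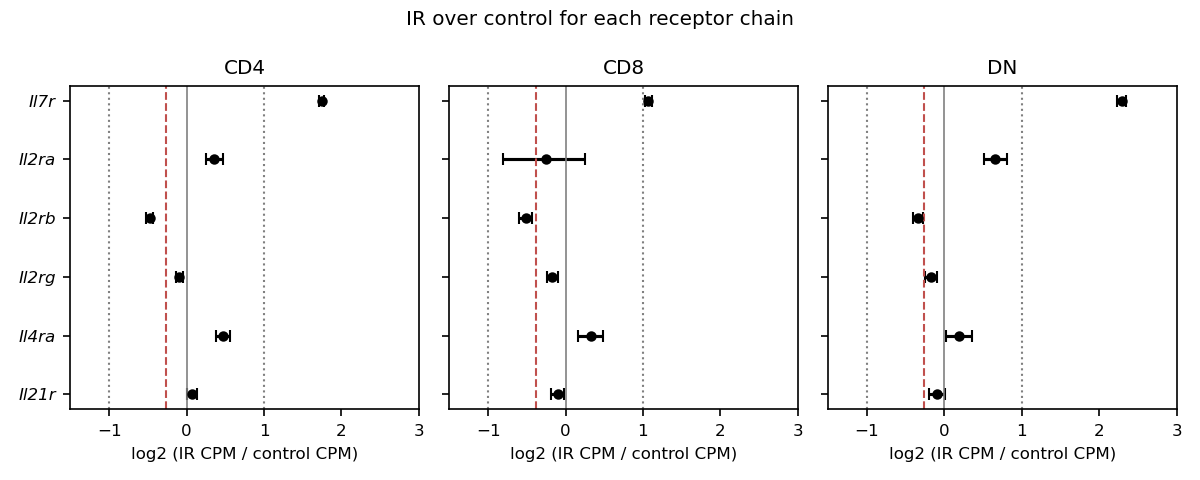
Log2 ratio of IR CPM over control CPM for each receptor chain in CD4, CD8 and DN T cells, with 95% counting intervals; the dashed line is the median of all genes tested and dotted lines mark 2-fold. Il7r is the only gene beyond 2-fold, at log2 1.75 in CD4, 1.07 in CD8 and 2.29 in DN cells.

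Between subsets, Il2ra, Il2rb and Il7r were the chains that passed 2-fold in at least 1 comparison. Il2ra was 9.11-fold higher in control DN than in control CD8 cells (8.09 to 10.3) and 7.08-fold higher in control CD4 than in control CD8 cells (6.27 to 8.02). After IR these ratios were 17.1 (12.1 to 24.9) and 10.8 (7.72 to 15.6). Il2rb followed the order DN, CD4, CD8 in both conditions, with DN over CD8 ratios of 2.31 in control (2.27 to 2.36) and 2.60 after IR (2.43 to 2.79). Il7r had the opposite order in control, where the DN level was 0.391 times that of CD8 and 0.552 times that of CD4 cells, whereas after IR the DN level was 0.909 times that of CD8 and 0.802 times that of CD4 cells. In all, 3 of the 6 chains passed 2-fold for control DN against CD8 (background 6.58% of genes), 2 for IR DN against CD8 (11.9%), and Il2ra alone for CD4 against CD8 in control (4.36%) and IR (7.62%). None passed for DN against CD4, where the background was 2.75% in control and 7.30% in IR. Il2rg and Il21r stayed within 1.25-fold between subsets in either condition.

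In thinned cells Il2ra was detected in 2.11% of control CD4, 0.236% of control CD8 and 2.60% of control DN cells, and in 2.34%, 0.268% and 3.61% after IR. In the barcodes with little Cd3 the share was 0.296% (1 of 338, 0.00749 to 1.64%) and the level 5.70 CPM, too few UMIs to set a background or to tell the CD8 libraries apart from one. Within control CD8 cells Il2ra was 10.3 CPM in cells with a UMI of Pdcd1, described below, and 5.42 CPM in those without, a ratio of 1.90 (1.48 to 2.43), or 2.44 (0.597 to 7.48) among cells of 1000 to 3000 UMIs. Il2rb was detected in 19.8% of CD4, 12.9% of CD8 and 27.3% of DN cells in control and in 13.6%, 8.40% and 22.1% after IR. In pooled counts, fewer cells of a type and less RNA per cell cannot be told apart.

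The levels also varied with the state of the cells, read from whether a cell held a UMI of 7 state genes. These splits used unthinned cells, so a cell without a UMI may still express the gene, more often in the shallower IR libraries. Ccr7 encodes a chemokine receptor of naive and central memory T cells. In control CD4 cells Il7r was 952 CPM in the 695 cells with a Ccr7 UMI and 208 CPM in the 8559 without one. In control CD8 cells it was 995 CPM with and 216 CPM without. After IR the cells with a Ccr7 UMI had 1307 CPM in CD4 and 1145 CPM in CD8, and the cells without one had 794 and 582 CPM. The ratio of IR over control was therefore 1.37 (1.31 to 1.44) in CD4 cells with and 3.81 (3.71 to 3.92) in those without Ccr7, and 1.15 (1.102 to 1.202) with and 2.70 (2.57 to 2.82) without in CD8 cells. Among CD8 cells of 1000 to 3000 UMIs the contrast was smaller, with Il7r at 738 CPM with and 310 CPM without a Ccr7 UMI in control and at 1173 and 611 CPM after IR. The ratio of with over without was there 2.38 (1.99 to 2.84) in control and 1.92 (1.81 to 2.04) in IR CD8 cells, and control CD4 held fewer than 50 such cells with Ccr7. The share of cells with a Ccr7 UMI at 500 UMIs per cell was 1.30% in control CD4, 3.92% in control CD8, 10.4% in IR CD4 and 25.9% in IR CD8 cells, and without thinning 7.51%, 16.8%, 20.1% and 37.5%.

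Zbtb16 encodes PLZF, the transcription factor of innate-like T cells. In control CD4 cells Il7r was 77.3 CPM in the 2960 cells with a Zbtb16 UMI and 376 CPM in the other cells, a ratio of 0.205 (0.194 to 0.217). In IR CD4 cells the values were 910 and 890 CPM, a ratio of 1.02 (0.966 to 1.08). The ratio of IR over control was 11.8 (10.9 to 12.7) in CD4 cells with a Zbtb16 UMI and 2.37 (2.31 to 2.43) in those without. It was 11.6 (9.13 to 14.6) in DN cells with a UMI of Pdcd1, and no other set had a ratio as high as these. Restricting the split to cells of 1000 to 3000 UMIs gave ratios of 0.190 in control and 1.097 in IR CD4 cells.

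DN T cells gave a change of direction. Fcer1g encodes a signalling adaptor of Fc and natural killer receptors, and Klrb1c the receptor NK1.1. In control DN cells Il7r was 281 CPM in the 2190 cells with an Fcer1g UMI and 99.0 CPM in those without, but in IR DN cells it was 593 CPM in the 585 cells with and 739 CPM in those without. For Klrb1c the values were 197 with and 103 CPM without in control DN, and 644 with and 735 CPM without in IR DN cells. The ratio of with over without went from 2.84 (2.72 to 2.96) to 0.802 (0.721 to 0.891) for Fcer1g and from 1.90 (1.82 to 1.99) to 0.876 (0.799 to 0.958) for Klrb1c. Restricted to cells of 1000 to 3000 UMIs these ratios were 3.85 (2.53 to 5.78) and 0.839 (0.752 to 0.935) for Fcer1g and 3.07 (2.06 to 4.60) and 0.895 (0.814 to 0.981) for Klrb1c. The control values there rest on 52 cells with an Fcer1g UMI and 115 with a Klrb1c UMI.

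Across all 28 sets of cells with or without a UMI of 1 state gene in a subset, Il7r was higher in IR in 28, and by 2-fold or more in 24. They come from 7 state genes in CD4, 3 in CD8 and 4 in DN cells, those with 50 or more cells in both conditions, and they overlap, since each cell enters 1 set for each state gene of its subset. The control levels of the sets ran from 77.3 to 995 CPM, a 12.9-fold span, and the IR levels from 227 to 1307 CPM, a 5.77-fold span. The lowest IR value was in the 123 CD8 cells with a UMI of Pdcd1, which encodes the inhibitory receptor PD-1, where Il7r was 140 CPM in control.

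**Figure D4:**
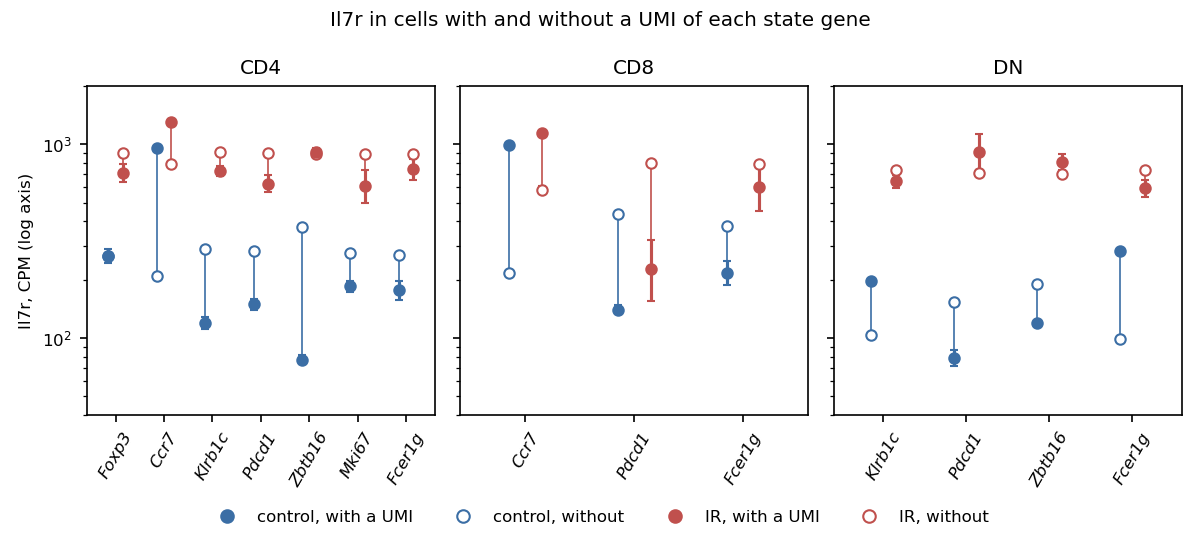
Il7r level in CPM (log y axis) in cells with (filled) and without (open) a UMI of each state gene (x axis) in CD4, CD8 and DN T cells, with control in blue, IR in red and bars for 95% Poisson intervals; only state genes with 50 or more such cells in both conditions are shown. In DN cells the filled points for Fcer1g and Klrb1c lie above the open ones in control and below them in IR.

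Il2ra was highest in CD4 cells with a UMI of Foxp3, the transcription factor of regulatory T cells. It was 172 CPM in the 342 control CD4 cells with Foxp3 and 40.3 CPM in the others, a ratio of 4.26 (3.80 to 4.77), and 202 against 53.9 CPM after IR, a ratio of 3.75 (3.03 to 4.61). Il7r was 265 against 266 CPM in the same control cells and 710 against 899 CPM in the IR cells. Il2ra was also higher in CD4 cells with a Zbtb16 UMI, at 75.1 against 28.7 CPM in control and 126 against 51.3 CPM after IR. DN cells held almost no Foxp3, with 4 UMIs in control and 0 in IR, where 3 counts would be 0.684 CPM, although their Il2ra level was the highest of the subsets.

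Il2rb was lower in cells with a Ccr7 UMI. Il2rb was 116 CPM in control CD4 cells with Ccr7 and 496 CPM in those without, a ratio of 0.235 (0.213 to 0.257), and 80.6 against 396 CPM after IR, a ratio of 0.204 (0.178 to 0.232). In CD8 cells the ratios were 0.575 in control and 0.571 after IR, and among those of 1000 to 3000 UMIs 0.764 (0.566 to 1.01) and 0.536 (0.466 to 0.615). CD4 cells with a Klrb1c UMI had 1.62 times the Il2rb of the other CD4 cells in control and 1.78 times after IR. Il4ra in cells with Ccr7 was 1.44 to 1.68 times that of the other cells in the 4 CD4 and CD8 libraries. Among cells of 1000 to 3000 UMIs it was 1.67 times in IR CD4 and 1.59 times in IR CD8 cells, but 0.877 times (0.426 to 1.63) in control CD8 cells. Control cells with a Pdcd1 UMI had 0.601 (CD4), 0.624 (CD8) and 0.586 (DN) times the Il4ra level of those without, and for CD8 the ratio was 0.595 (0.234 to 1.26) at 1000 to 3000 UMIs. Il2rg ran from 287 to 413 CPM over the 28 sets in control, a 1.44-fold span, and from 184 to 414 CPM in IR, a 2.25-fold span. Its highest IR level was in CD4 cells with a Klrb1c UMI, at 1.33 times that of the other CD4 cells (1.21 to 1.45).

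Co-detection in single cells was compared with the product of the shares of the 2 genes. Among 15 pairs, between 8 (IR CD8) and 14 (IR CD4) per library had a product of 20 cells or more. Il7r and Il2rb were found together less often than that product in all 6 libraries: 127 cells against 200 in control CD4 (ratio 0.636, 0.531 to 0.756), 121 against 155 in IR CD8 (0.781, 0.649 to 0.932) and 377 against 438 in IR CD4 (0.862, 0.778 to 0.951). In the other 3 libraries the ratio was 0.887 to 0.959 with intervals that included 1. Il7r with Il4ra was 1.2 or more in 4 of 5 libraries, with an interval above 1 in IR CD4 (1.05 to 1.42) and intervals that included 1 in the other 4, and Il2rb with Il2rg lay between 0.913 and 1.09 in all 6. Il2ra with Il2rb reached 1.61 (1.204 to 2.11) in IR CD4 cells and 0.934 to 1.11 in the other 3 libraries assessed. Without thinning, no pair was at 0.8 or below in any library in which thinned cells had one.

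At 500 UMIs, 41.2 to 56.8% of cells of a library held no UMI of any receptor chain, and 0.913 to 2.40% held 3 or more chains, so absence from a cell was not detectable at this depth. Il7r together with Il2rg, the 2 chains of the IL-7 receptor, was seen in 1.92% of CD4, 2.16% of CD8 and 1.15% of DN cells in control and in 3.93%, 3.41% and 2.99% after IR. Without thinning the order of the conditions was the opposite, with 30.6%, 28.7% and 24.4% in control and 18.7%, 10.4% and 10.1% after IR. Relative to the product of the single shares the thinned pair was at 1.15, 1.09 and 1.17 in control and at 0.919, 0.928 and 0.806 in IR cells, with an interval that excluded 1 in IR DN (0.670 to 0.960) and included it in the other 5 libraries. Il2rb with Il2rg was seen in 2.83%, 1.86% and 4.47% of control cells and in 2.00%, 1.09% and 2.87% after IR. All 3 chains of the high-affinity IL-2 receptor were found together in 7 control CD4, 13 control DN, 7 IR CD4, 2 IR CD8 and 8 IR DN cells and in 0 of 9305 control CD8 cells. Without thinning they were found together in 10.0% of control CD4, 1.58% of control CD8 and 17.7% of control DN cells and in 1.95%, 0.0632% and 1.43% after IR. Depth and condition cannot be told apart here, so no order between conditions is read from these counts.

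**Figure D5:**
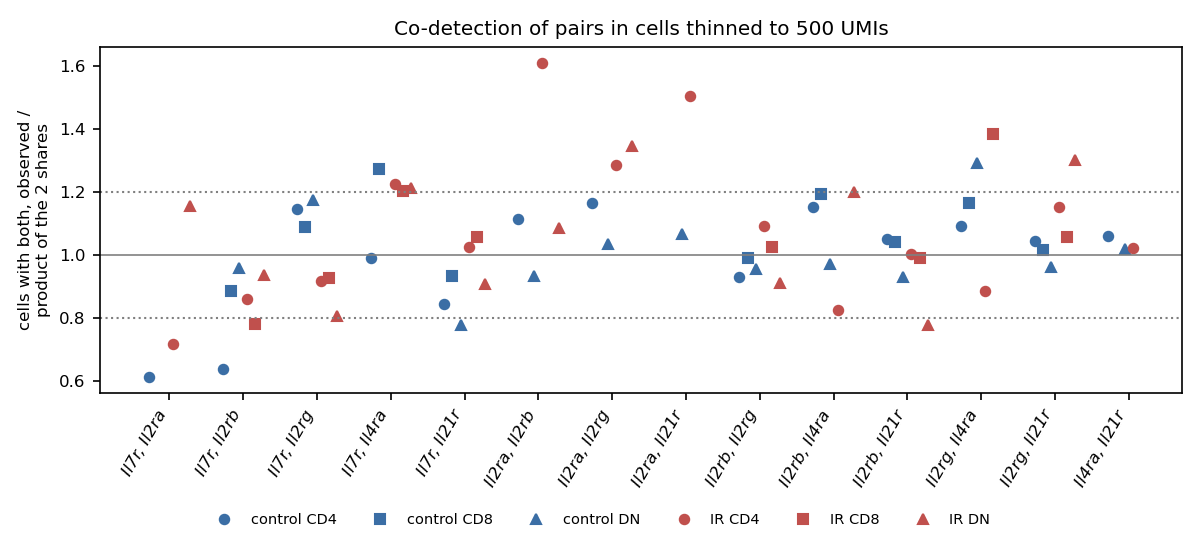
Cells in which both genes of a pair were detected divided by the product of their shares (y axis), for pairs with a product of 20 or more cells (x axis) in each library thinned to 500 UMIs per cell; dotted lines mark 0.8 and 1.2. Il7r with Il2rb lies below 1 in all 6 libraries.

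Across thinned cells, the genes detected most alike to Il7r, among 5382 genes, were Klf2, Lef1 and Emb, with mean phi coefficients over 6 libraries of 0.141, 0.103 and 0.100, each positive in all 6. Klf2 and Lef1 are transcription factors of resting naive T cells. The least alike were Nkg7, S100a6 and Cd52, at -0.113, -0.111 and -0.110. Il2rb was most alike to Ccl5, Nkg7 and Hopx (0.065, 0.043 and 0.041), genes known from cytotoxic and memory cells, and least to Klf2, Lef1 and Gm8369 (-0.050, -0.039 and -0.038). Il2ra was most alike to St6galnac3, Kcnq5 and Pim1 (0.040, 0.037 and 0.035) and least to Klf2 and Eif3f (-0.028 and -0.025). For Il2rg the most alike were Cd52, Nfkbia and Gm2682 (0.031, 0.030 and 0.022) and the least Sh2d2a, Hmgb1 and Map1lc3b (each -0.020 or -0.019). Il4ra was most alike to Satb1, Foxp1 and Gm8369 (0.030, 0.023 and 0.023) and least to Ccl5, S100a4 and AW112010 (-0.034, -0.028 and -0.027). Il21r was most alike to Dennd4a, Inpp4b and Gramd3 (0.025, 0.023 and 0.023) and least to Cfl1, Ccl5 and Tpt1 (-0.022, -0.019 and -0.019). These coefficients are weak, and the cells of a library share its depth. Over the 6 libraries, Il2rb and Il2rg had the most similar pattern, though not level, of the 15 pairs (Pearson r = 0.98 of log2(CPM + 1)). The gene most like Il2ra among 5021 genes was Ern1, followed by Itgb3 and the cytokine gene Il4, and Il4 was at 94.3 CPM in CD4, 0.154 in CD8 and 116 in DN cells of the control libraries and at 92.7, 0 and 140 CPM after IR. In IR CD8 cells 3 counts would be 0.466 CPM. The genes most like Il7r were Acot13, Supt4a and Ubb. The most alike were Tcrg-C2, Ptpn2 and Slc16a10 for Il2rb, Bcap31, Myo6 and Tcrg-C2 for Il2rg, Hsbp1, Nfkbiz and Klf6 for Il4ra, and Zmat2, D830025C05Rik and Ube2q1 for Il21r. The r values of the genes listed for the 6 chains ran from 0.937 to 0.997. Each gene was picked from 5021 over only 6 libraries that differ in subset, condition and depth, and shared regulation was not tested.

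Of the genes that act with these receptors, Socs1, Socs3, Pim1 and Klf2 were higher by 2-fold or more and Runx1 lower in IR in all 3 subsets, where 7.72 to 8.31% of all genes were higher and 11.3 to 17.7% lower. Among 4 feedback genes, Socs1 and Socs3, which inhibit cytokine signalling, were 2-fold or more higher in IR in all 3 subsets: Socs1 was at 92.1, 88.6 and 120 CPM in the 3 control libraries and at 417, 437 and 407 CPM after IR, and Socs3 was 43.3, 39.5 and 33.8 against 298, 296 and 117 CPM. Cish did not pass in any subset, and Socs2 was lower in IR CD8 cells only (19.4 against 7.60 CPM). Among 5 survival and growth targets, Pim1, a kinase gene induced by STAT5, was 294, 261 and 346 CPM in control and 1790, 1750 and 1937 CPM in IR cells. Myc passed in CD8 cells only, at 38.3 against 102 CPM, and Pim2 was lower in DN cells, at 60.1 against 24.4 CPM. Bcl2 and Mcl1 stayed below 2-fold in all 3 subsets.

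The kinases Jak1 and Jak3 did not pass in any subset, nor did Stat3, Stat5a, Stat5b and Stat6. Of 6 genes that regulate Il7r transcription, Klf2 was higher in IR in all 3 subsets, from 426 to 2082 CPM in CD4, from 742 to 3678 CPM in CD8 and from 278 to 818 CPM in DN cells. Runx1 was lower in all 3, at 1457, 570 and 1189 CPM in control and 471, 162 and 505 CPM in IR cells. Foxo1, Gabpa, Ets1 and Gfi1 did not pass. Of the other receptor chains, Il15ra was lower in IR in CD4 (25.3 against 11.4 CPM) and CD8 cells (32.9 against 14.3 CPM), Crlf2 did not pass, and Il9r and Il13ra1 were below 10 CPM in every library. Of 7 ligand genes, Il2 was lower in IR in CD4 (47.8 against 20.1 CPM) and CD8 cells (44.5 against 11.8 CPM), and Il7, Il9, Il15, Il21 and Tslp were below 10 CPM throughout.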

How the data were processed

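The authors deposited UMI counts per gene and barcode for 6 libraries, made with the 10x 3′ v3.1 chemistry. Per the file headers, Cell Ranger 5.0.1 made the control and 6.0.1 the IR matrices, whereas the submitters' processing notes name 6.0.1 and mm10 for all. Barcodes with under 500 features, over 20% mitochondrial counts or in the top 5% by UMIs of their library were removed, the last in place of a doublet caller. Cells were clustered with scanpy 1.11.5, and clusters in which under 50% of cells held a Cd3 UMI were left out. T cells were summed per library to CPM. A difference was called at 2-fold or more and 10 CPM or more, and no test was run, since each group had 1 library. Intervals are exact Poisson or Clopper-Pearson at 95%, and 3 counts corresponded to 0.0494 to 0.684 CPM. PCR duplicates are removed by UMIs. Libraries of the same condition shared 20 to 30 (control) or 101 to 108 (IR) barcodes, which were kept. The summing and calling steps were tested on simulated data.

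The members and gene lists were chosen with earlier results of these data known. By rule, the text names the 6 receptor chains, the pathway lists, 7 state genes and, for each chain, the 3 genes most and least alike. Some genes that these rules select are not reported here. The alternatives were TMM scaling (edgeR 4.0.16), other filters, thresholds and thinning depths, a depth window, removal of shared barcodes or of cells with other lineages' UMIs, and centring by intronic length.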

Additional observations from a re-analysis of the deposited data

Results flagged for a closer look

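The differences listed here have counting intervals on opposite sides of 1. They compare IR over control in 2 subsets, or a split by state gene in control and IR of 1 subset. Splits that differ between subsets are not listed. None was tested, since each group had 1 library. Il21r was 1.05 times its control level in IR CD4 and 0.932 times in IR CD8 cells, and it was 0.861 times as high in control CD8 cells with a Ccr7 UMI as in those without but 1.37 times as high in IR CD8 cells. In DN cells 5 such splits differed in direction between control and IR. For Il7r the ratio of cells with over cells without a UMI was 1.90 in control and 0.876 in IR for Klrb1c, 2.84 and 0.802 for Fcer1g, 0.514 and 1.29 for Pdcd1, and 0.627 and 1.15 for Zbtb16. For Il2ra it was 0.913 and 1.52 for Klrb1c. The Pdcd1 value in IR rests on 92 cells, and control DN held fewer than 50 cells with a Pdcd1 UMI among those of 1000 to 3000 UMIs. Among cells of 1000 to 3000 UMIs the Zbtb16 ratio of Il7r was 0.702 (0.442 to 1.09) in control and 1.11 (0.995 to 1.24) in IR DN cells, with both intervals including 1, and the Klrb1c ratio of Il2ra was 1.16 (0.601 to 2.16) in control and 1.59 (1.26 to 1.99) in IR. The Ccr7 ratio of Il21r in control CD8 cells was 0.762 (0.518 to 1.09) there, so none of these 3 splits differed in direction by its intervals.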

How the results depend on the processing

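Each comparison had 1 library a side, so none could be left out, and the 3 pairs of IR and control libraries were not tested as replicates, since they are different subsets. Il7r kept its direction between IR and control under all 13 alternatives and 2-fold under all 13 in CD4 and DN cells. The number of receptor chains past 2-fold, 1 in IR CD8 against control, was 0 when the removed features were kept and 0 without cell filters, and the cause was not tested. Of all genes, 4.20% were higher and 39.2% lower in the first setting, and 8.69% and 16.9% in the second. In IR DN cells it was 2 with genes centred by intronic length and 2 at 1.5-fold, adding Il2ra. For control DN against CD4 it went from 0 to 1 (Il7r) in thinned cells, as a mean over cells and at 1.5-fold. The shares of all genes higher and lower were 1.61% and 1.95%, 1.47% and 1.74%, and 3.92% and 3.32% in these settings. For CD4 against CD8 in control it was 0 at a minimum of 50 CPM, where 1.875% of all genes were higher and 1.27% lower. At 1.5-fold it was 2 for CD4 against CD8 in control and in IR, and 2 for IR DN against CD4. The shares of all genes higher and lower were 6.16% and 4.36%, 9.76% and 7.01%, and 9.79% and 5.33% in these comparisons.

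Pairs at 1.2 or more went from 0 to 2 (no thinning, and 1000 UMIs) in control CD4, from 1 to 8 (no thinning) or 2 (cells with other lineages' UMIs left out) in control CD8, from 1 to 0 (no thinning, and 1000 UMIs) in control DN, and at 1000 UMIs from 2 to 1 in IR CD8 and from 3 to 0 in IR DN. Pairs at 0.8 or less went without thinning from 2 to 0 in control CD4 and from 1 to 0 in control DN and the 3 IR libraries, and at 1000 UMIs from 1 to 0 in control and IR DN. At 1000 UMIs fewer cells remain in the IR libraries.

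Keeping the removed features moved the median of all genes by log2 -0.37, -0.44 and -0.18 in CD4, CD8 and DN, and the share of higher among called genes from 33.9% to 11.7%, from 30.9% to 9.67% and from 42.5% to 26.2%. Centring by intronic length gave 62.1%, 64.6% and 70.0%. With no minimum CPM the median moved by log2 1.24, 2.03 and 2.47 and the share was 85.1%, 86.2% and 90.5%. In ratios a count of 0 is set to 3 counts, which is a higher CPM in the shallower IR libraries. The splits by state gene in cells of 1000 to 3000 UMIs were added after seeing the data. The shallow IR libraries and the single library per group limit what these values can show.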
